A study of Mus musculus with 16 samples.

Results

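Transcript levels of 35 genes of the lysosome, its proton pump and the autophagy machinery were followed in cultured mouse hepatocytes with and without a deletion of the neutral sphingomyelinase gene Smpd3, with and without the saturated fatty acid palmitic acid. The genes were chosen by name: 2 transcription factors, 5 lysosomal membrane proteins, 6 cathepsins, 7 other hydrolases and their cofactors, 9 subunits of the vacuolar proton pump (V-ATPase) and 6 autophagy genes. Their symbols were matched to mouse Ensembl gene IDs, and all 35 were found among the 55416 IDs measured. All 35 were above the filter on low values and were tested with 11858 genes in all.

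RNA was sequenced from 16 samples of primary hepatocytes, cells isolated from liver and kept in culture. HKO cells were Alb-cre+: a Cre recombinase driven by the albumin promoter, which is active in hepatocytes, removes the loxP-flanked Smpd3 from these cells. FLOX cells, their controls, were Alb-cre-. Each genotype was cultured for 24 h with 0.4 mM palmitic acid or with vehicle, giving 4 samples in each of the groups HKO with palmitic acid, HKO with vehicle, FLOX with palmitic acid and FLOX with vehicle. All 4 groups share the isolation from liver and the 24 h of culture with palmitic acid or vehicle. The vehicle, the age, sex and strain of the mice and the number of mice are not in the labels used here. Nothing there says that the 4 samples of a group are separate mice or cultures, so each p-value rests on a scatter that may be technical in part.

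The lysosome is the acidic compartment in which proteins, lipids and sugars are broken down. The V-ATPase pumps protons into it, with a membrane part (V0) that conducts protons and a soluble part (V1) that splits ATP, and the low pH activates the cathepsins and other hydrolases. Autophagy delivers cytoplasm and lipid droplets to lysosomes, and in the liver this route is one way to release stored fat. TFEB and TFE3 are related transcription factors that bind a short palindromic DNA element in the promoters of many lysosomal genes.

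Levels are in TPM, a gene's share of the transcripts of its sample after correction for length. Read totals cannot be recovered from TPM, so the depth behind a value is unknown and its precision is judged from the spread of 4 samples. The TPM of a sample summed to between 975816 and 984870, between 11231 and 11498 genes reached 1 TPM, and the lowest correlation between samples of a group was 0.980 across genes. All 10 hepatocyte markers on the list used here, among them Alb and Apoa1, averaged above 1 TPM in every group. Smpd3 had 7.88, 9.15, 7.82 and 6.44 TPM in HKO cells with palmitic acid and 4.25, 5.89, 5.54 and 5.46 TPM in HKO cells with vehicle. FLOX cells had 42.5, 47.1, 46.7 and 47.8 TPM with palmitic acid and 37.1, 29.7, 27.8 and 33.2 TPM with vehicle. Smpd3 was lower in every HKO sample than in any FLOX sample, with a log2 fold change of -2.42 ± 0.11, adjusted p = 1.09e-09 with palmitic acid and -2.39 ± 0.11, adjusted p = 7.87e-10 with vehicle. In bulk RNA, fewer cells of a type and less RNA per cell cannot be told apart.

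With palmitic acid a minority of the 35 genes changed, led upward by Wipi1, Cd68, Ctsl and Atp6v1b2. In HKO cells 11 of 35 genes (31.4%) rose and 3 (8.57%) fell, and in FLOX cells 9 (25.7%) rose and 1 (2.86%) fell. A change was called at a limma adjusted p below 0.05, with p-values adjusted over all 11858 genes, and log2 fold changes are given with their standard error on the scale of log2(TPM + 1). Of all genes tested, 29.4% rose and 13.1% fell with palmitic acid in HKO cells, and 23.0% rose and 11.5% fell in FLOX cells, so on the deposited scale the shares of the 35 genes that rose were close to this background and the shares that fell were below it. With other scalings of the samples, given below with their counts, the share of the 35 genes that fell in HKO cells was above the background. All 9 genes that rose in FLOX cells also rose in HKO cells, where they made up 81.8% of those that rose: Cd68, Scarb2, Ctsb, Ctsd, Ctsl, Psap, Atp6v1b2, Map1lc3a and Wipi1. These 2 comparisons share no sample, and over all genes the overlap was 82.2% of the FLOX list and 64.2% of the HKO list. Tfe3 and Map1lc3b were past the threshold in HKO cells and not in FLOX cells, and the difference between the responses was not past it for either gene. Hepatocyte markers moved with palmitic acid as well: 9 of 10 fell in HKO cells and 8 of 10 in FLOX cells. Their summed level ran from 45070 to 46523 TPM with palmitic acid and 58927 to 60081 TPM with vehicle in HKO cells, and from 43314 to 44794 TPM with palmitic acid and 55517 to 56127 TPM with vehicle in FLOX cells. Their part in the shares of other genes was not tested.

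Between genotypes every call among the 35 genes was higher in HKO cells. Under each treatment these calls took in 2 of 9 V-ATPase subunits and 2 of 6 cathepsins. Of the other hydrolases 3 of 7 were called with palmitic acid and 2 with vehicle, of the membrane proteins 1 of 5 and 2, and of the autophagy genes 2 of 6 and 1. With palmitic acid, 10 of 35 genes (28.6%) were higher in HKO than in FLOX cells and 0 were lower, and with vehicle 9 (25.7%) were higher and 0 were lower. With palmitic acid the 10 were 4, 5 and 6 without HKO palmitic acid replicate 1, 2 and 4. Of all genes 3.19%, 3.24% and 4.15% were then higher. The 10 were 6, 4 and 6 without FLOX palmitic acid replicate 2, 3 and 4, against 3.86%, 3.54% and 3.55% of all genes. They were 5 without the mean-variance trend of the fit (4.06% of all genes), 5 with only the groups compared (2.69%) and 16 after quantile normalization (5.39%). With vehicle the 9 were 5 without HKO vehicle replicate 2 (2.72% of all genes) and 4 without HKO vehicle replicate 3 (2.89%). At an unadjusted limma p under 0.05, 17 were higher and 2 lower (Scarb2 and Map1lc3a) with palmitic acid, and 16 higher and 1 lower (Map1lc3a) with vehicle. The share of all genes at that unadjusted p was not counted, so these counts have no background here. At the adjusted threshold, 4.24% of all genes tested were higher and 5.50% lower in HKO cells with palmitic acid. With vehicle 4.11% were higher and 7.56% lower, and these shares are the background of the 10 and 9 calls. The median log2 difference between HKO and FLOX cells was 0.10 for the 35 genes and -0.0077 for all genes with palmitic acid, and 0.12 for the 35 genes and -0.023 for all genes with vehicle. Of the 35 fitted differences, 28 were above 0 with palmitic acid and 31 with vehicle. The genes higher in HKO cells under both treatments were Cd68, Ctsl, Ctsz, Grn, Atp6v0d1, Atp6v1e1 and Gabarapl1, which is 70% of the list with palmitic acid and 77.8% of that with vehicle. Over all genes these shares were 58.1% of the list with palmitic acid and 60.0% of that with vehicle.

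**Figure D1:**
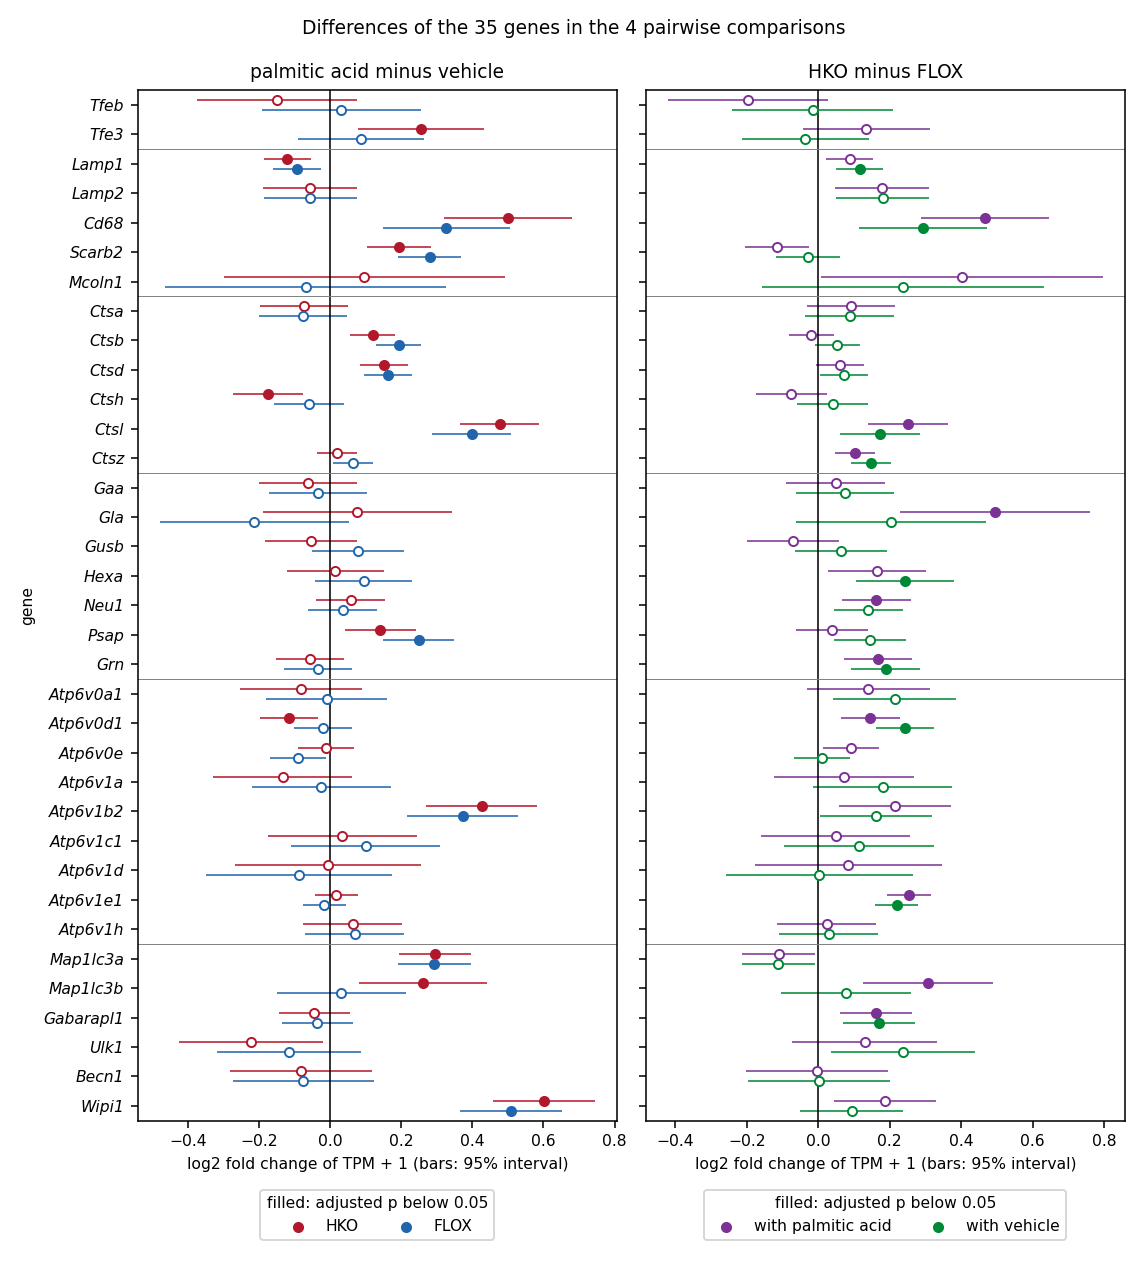
Log2 fold changes of TPM + 1 for the 35 genes, ordered by role, as palmitic acid minus vehicle in HKO and FLOX cells (left) and HKO minus FLOX with palmitic acid and with vehicle (right). Points are limma estimates over 4 and 4 samples, bars are 95% intervals and filled points have an adjusted p below 0.05. Filled points of the right panel all lie above 0, while those of the left panel lie on both sides.

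Across the 4 comparisons 21 genes were past the threshold at least once and 14 never were: Tfeb, Lamp2, Mcoln1, Ctsa, Gaa, Gusb, Atp6v0a1, Atp6v0e, Atp6v1a, Atp6v1c1, Atp6v1d, Atp6v1h, Ulk1 and Becn1. Only Cd68 and Ctsl were past it in all 4, each time upward. Scaling between samples bears on the responses to palmitic acid. Median-ratio scaling of the TPM lowered the median log2 fold change of all genes by 0.11 in HKO cells and by 0.091 in FLOX cells, and the share of rises among all calls was 46.9% in place of 69.3% in HKO cells and 44.8% in place of 66.7% in FLOX cells. Under quantile normalization these shares were 51.9% in HKO cells and 50.4% in FLOX cells. Of the 35 responses 19 were above 0 in HKO cells and 18 in FLOX cells as deposited, 10 and 9 on the median-ratio scale, and 13 and 14 after quantile normalization. On the median-ratio scale 4 of the 35 genes (11.4%) rose in HKO cells, namely Cd68, Ctsl, Atp6v1b2 and Wipi1, and 12 (34.3%) fell, against 17.6% of all genes that rose and 19.9% that fell. In FLOX cells 6 (17.1%) rose and 5 (14.3%) fell on that scale, against 13.7% and 16.8% of all genes. After quantile normalization 7 rose and 9 (25.7%) fell in HKO cells, against 20.2% and 18.8% of all genes, and in FLOX cells 9 (25.7%) rose and 1 (2.86%) fell, against 16.1% and 15.8%. For HKO against FLOX cells on the median-ratio scale 8 of the 35 genes (22.9%) were higher with palmitic acid and 13 (37.1%) with vehicle, against 4.54% and 5.31% of all genes, and 0 were lower. After quantile normalization 16 (45.7%) were higher with palmitic acid and 13 (37.1%) with vehicle, against 5.39% and 5.96% of all genes, again with 0 lower. On the median-ratio scale the share of higher calls among all genes was 53.3% in place of 43.5% with palmitic acid, and 53.9% in place of 35.2% with vehicle, while quantile normalization gave 51.3% with palmitic acid and 51.9% with vehicle.

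**Figure D2:**
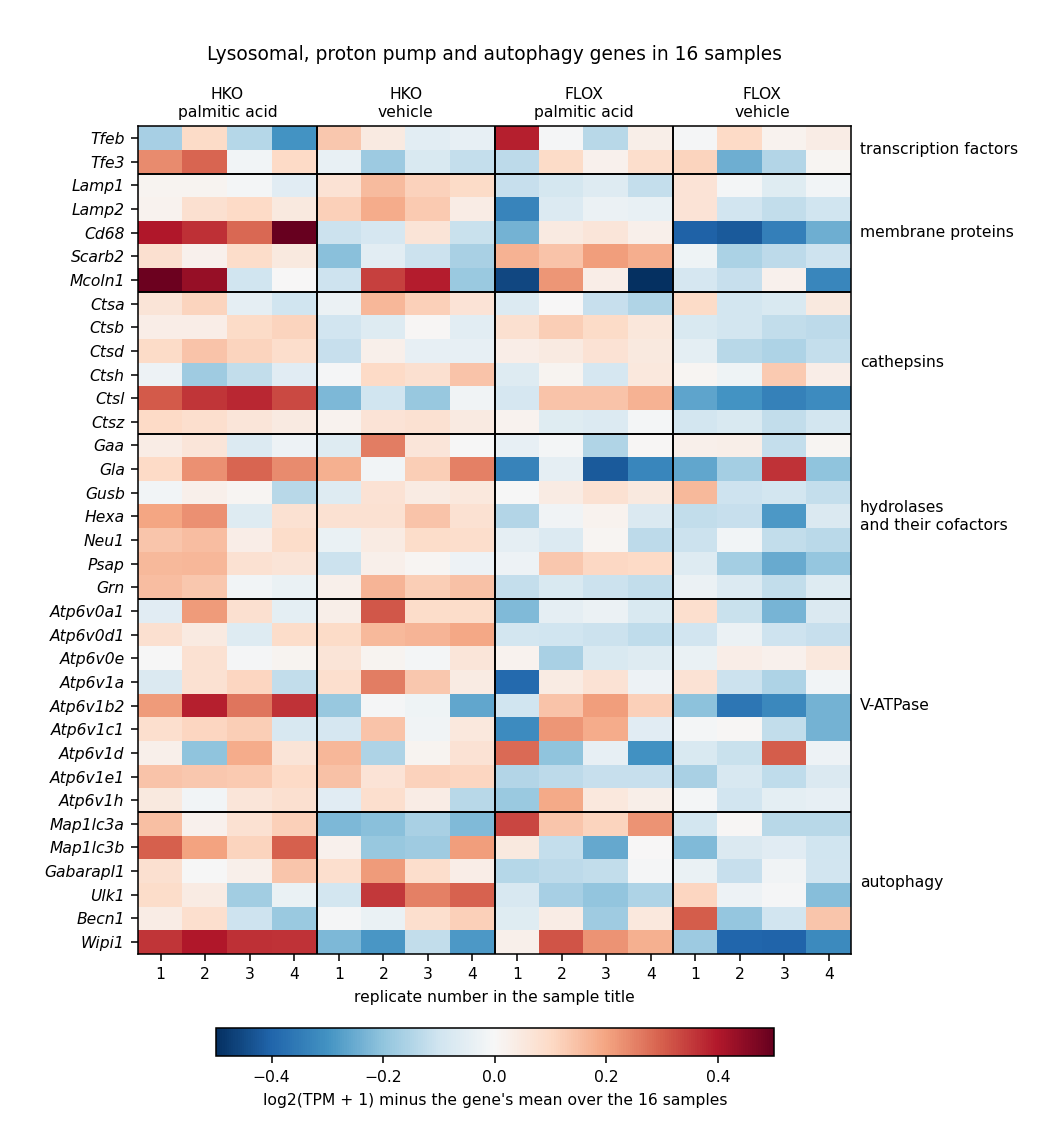
Level of each of the 35 genes in each of the 16 samples, as log2(TPM + 1) minus the gene's mean over the 16 samples, with colours held at 0.5 above and below. Rows are grouped by role and columns by group. Cd68, Ctsl and Wipi1 are red in the 4 HKO samples with palmitic acid and blue in the 4 FLOX samples with vehicle, and Atp6v1e1 divides the 8 HKO from the 8 FLOX samples.

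The element bound by TFEB and TFE3 has the core CACGTG, and a longer form is TCACGTGA. Both read the same on the 2 strands, and the longer form contains the shorter. They were searched in RefSeq promoters of build GRCm38.p6, each reaching from 250 bases before to 50 bases after the annotated gene start, a window of 300 bases. Of the 35 genes 28 had an entry, with 33 windows in all, and 10 of these genes (35.7%) held CACGTG, against 8.09% of the 27025 genes of the table. TCACGTGA stood in 7 of the 28 (25%), against 1.12% of all. The 8 bases flanked by a G before and a C after stood in 0 of the 28 and in 0.37% of all genes. All 28 had passed the filter on low values, whereas the genes of the table were not limited to those that did. The 2 sets are therefore unlike, and shares among tested genes alone were not counted. The genes with CACGTG were Lamp1, Mcoln1, Ctsa, Ctsd, Ctsl, Gaa, Gla, Atp6v0d1, Atp6v0e and Atp6v1a. Of these 10 genes 5 were past the threshold in at least 1 comparison, as were 12 of the 18 without a match. The matches of those 5 genes are printed to show their number and surroundings, 5′ to 3′ on the strand of the gene with the matching bases in capitals. The Lamp1 stretch lies at chr8:13159089-13159162 (plus strand), those of Ctsd at chr7:142388056-142388077 and chr7:142387908-142387937 (minus) and that of Ctsl at chr13:64370740-64370767 (minus). The Gla stretch lies at chrX:134601182-134601244 (minus) and that of Atp6v0d1 at chr8:105566050-105566079 (minus).
Lamp1: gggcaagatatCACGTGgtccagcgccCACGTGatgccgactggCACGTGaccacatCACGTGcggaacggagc
Ctsd, first stretch: tccccCACGTGacctgtatcca
Ctsd, next stretch: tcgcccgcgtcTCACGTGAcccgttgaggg
Ctsl: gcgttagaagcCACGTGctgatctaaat
Gla: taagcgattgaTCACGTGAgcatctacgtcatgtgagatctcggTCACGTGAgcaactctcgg
Atp6v0d1: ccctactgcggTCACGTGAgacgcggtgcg
Lamp1 held 4 matches of the core and none of the longer form, and Gla held 2 of the longer form. The first match began 61 bases before the RefSeq start in Lamp1, 245 and 99 bases before it in the stretches of Ctsd, 236 in Ctsl, 228 in Gla and 4 in Atp6v0d1. The RefSeq starts are not always those of GENCODE, from which the gene positions in this report are taken. By the GENCODE positions the Ctsl stretch and the next stretch of Ctsd lie inside the gene (chr13:64359337-64370890 and chr7:142375911-142388038, both minus strand). Cd68, which was past the threshold in all 4 comparisons, had no match, and the 250 bases before its start (chr11:69666171-69666420, minus strand, 49.2% G and C) are printed for comparison.
Cd68: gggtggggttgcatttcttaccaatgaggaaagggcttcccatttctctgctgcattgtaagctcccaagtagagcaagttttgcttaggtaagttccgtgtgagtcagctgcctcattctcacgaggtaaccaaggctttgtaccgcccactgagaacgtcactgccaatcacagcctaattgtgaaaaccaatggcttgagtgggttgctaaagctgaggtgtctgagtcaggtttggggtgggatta
A match is a description of the letters and not of binding, and a window without one says nothing of the factor.

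Of the transcription factors, Tfe3 passed the threshold in 1 comparison and Tfeb in none. Tfeb had 4.59, 5.70, 4.67 and 4.09 TPM in HKO cells with palmitic acid and 5.87, 5.47, 5.04 and 5.09 TPM in HKO cells with vehicle. FLOX cells had 7.21, 5.24, 4.69 and 5.40 TPM with palmitic acid and 5.24, 5.71, 5.34 and 5.43 TPM with vehicle. The groups overlapped in all 4 comparisons for Tfeb (ENSMUSG00000023990, chr17:47737030-47792419, plus strand, GRCm38, GENCODE M21, as for all gene positions given here). The log2 fold change of Tfeb with palmitic acid was -0.15 ± 0.11 in HKO cells (95% interval -0.37 to 0.075) and 0.032 ± 0.11 in FLOX cells (-0.19 to 0.26). Tfeb was also the lower of the pair in level. Tfe3 had 22.8, 23.7, 19.0 and 20.7 TPM in HKO cells with palmitic acid and 18.7, 16.8, 18.2 and 17.6 TPM in HKO cells with vehicle. FLOX cells had 17.5, 20.6, 19.5 and 20.5 TPM with palmitic acid and 20.8, 16.1, 17.2 and 19.4 TPM with vehicle. Tfe3 (ENSMUSG00000000134, chrX:7762560-7775202, plus strand) rose with palmitic acid in HKO cells (0.26 ± 0.083, adjusted p = 0.0212), where the 4 treated samples lay above the 4 vehicle samples, the nearest values being 19.0 and 18.7 TPM. In FLOX cells the groups overlapped (0.087 ± 0.083, adjusted p = 0.445). The call in HKO cells was lost when HKO palmitic acid replicate 1 or 2 or HKO vehicle replicate 2 was left out (adjusted p up to 0.0718) and under median-ratio scaling and quantile normalization (log2 fold change 0.14 in each).

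Among the membrane proteins, Cd68 and Scarb2 rose with palmitic acid and Lamp1 fell, and Cd68 and Lamp1 were higher in HKO cells. Cd68 (ENSMUSG00000018774, chr11:69664213-69666153, minus strand) encodes macrosialin, a heavily glycosylated lysosomal membrane protein best known from macrophages. Cd68 had 86.2, 84.2, 79.7 and 106 TPM in HKO cells with palmitic acid and 60.3, 61.2, 68.0 and 60.1 TPM in HKO cells with vehicle. FLOX cells had 55.1, 67.2, 67.8 and 66.1 TPM with palmitic acid and 48.9, 48.3, 51.0 and 54.8 TPM with vehicle. The HKO samples with palmitic acid were the highest and the FLOX samples with vehicle the lowest, and in each of the 4 comparisons the groups did not overlap. The log2 fold change with palmitic acid was 0.50 ± 0.084, adjusted p = 0.000195 in HKO cells and 0.33 ± 0.084, adjusted p = 0.00714 in FLOX cells. HKO exceeded FLOX cells by 0.47 ± 0.084, adjusted p = 0.00184 with palmitic acid and by 0.29 ± 0.084, adjusted p = 0.0336 with vehicle. In FLOX cells the response was 0.23 on the median-ratio scale and no longer called. The call between genotypes with vehicle was lost without any 1 of HKO vehicle replicates 1 to 4 or of FLOX vehicle replicates 1 to 3, with an adjusted p of 0.104 at most, and also without the filter on low values (0.0812). Macrophage transcripts were scarce: of 12 macrophage markers, among them Adgre1, Clec4f, Csf1r and C1qa, none averaged 1 TPM in a group, the highest single value was 1.37 TPM, and Timd4 was at 0 in every sample. Their summed level ran from 1.64 to 2.20 TPM in HKO cells with palmitic acid, 1.06 to 3.03 in HKO cells with vehicle, 1.26 to 1.82 in FLOX cells with palmitic acid and 0.94 to 1.75 in FLOX cells with vehicle.

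Scarb2 (ENSMUSG00000029426, chr5:92441314-92506833, minus strand) encodes LIMP-2, the membrane protein that carries glucocerebrosidase to the lysosome. Scarb2 had 40.4, 38.8, 40.8 and 39.5 TPM in HKO cells with palmitic acid and 32.9, 36.7, 35.4 and 34.0 TPM in HKO cells with vehicle. FLOX cells had 43.2, 42.2, 44.2 and 43.4 TPM with palmitic acid and 37.5, 34.1, 34.7 and 35.5 TPM with vehicle. Every sample with palmitic acid lay above every vehicle sample of its genotype, by 0.19 ± 0.042, adjusted p = 0.00165 in HKO cells and 0.28 ± 0.042, adjusted p = 9.7e-05 in FLOX cells. With palmitic acid the 4 HKO samples lay below the 4 FLOX samples, a difference that was not past the threshold (-0.12 ± 0.042, adjusted p = 0.105). In HKO cells the response was 0.073 under median-ratio scaling and 0.082 after quantile normalization, no longer called under either, and in FLOX cells it was 0.18 under median-ratio scaling, still called.

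Lamp1 (ENSMUSG00000031447, chr8:13159161-13175338, plus strand) encodes one of the most abundant glycoproteins of the lysosomal membrane. Lamp1 had 337, 337, 332 and 321 TPM in HKO cells with palmitic acid and 352, 373, 362 and 357 TPM in HKO cells with vehicle. FLOX cells had 308, 314, 319 and 307 TPM with palmitic acid and 350.4, 332, 320.5 and 331 TPM with vehicle. Lamp1 fell with palmitic acid in HKO cells (-0.12 ± 0.031, adjusted p = 0.00552) and in FLOX cells (-0.093 ± 0.031, adjusted p = 0.0304). Lamp1 was higher in HKO than in FLOX cells with vehicle (0.12 ± 0.031, adjusted p = 0.025), and with palmitic acid the 4 HKO samples also lay above the 4 FLOX samples without passing the threshold (0.087 ± 0.031, adjusted p = 0.0972). The call in FLOX cells was lost without FLOX palmitic acid replicate 2 or 4 or FLOX vehicle replicate 1, 2 or 4 (adjusted p up to 0.0878), and that between genotypes with vehicle without HKO vehicle replicate 2 or 3 or FLOX vehicle replicate 2, 3 or 4 (up to 0.0824). Both calls were also lost without the mean-variance trend and with only the groups compared, and that in FLOX cells after quantile normalization and without both FLOX libraries numbered 1. In the annotation 3317 bases of Lamp1 overlap Grtp1 on the opposite strand, and whether reads were counted by strand is not stated. Lamp2, its relative, averaged 119 ± 2.94 TPM in HKO cells with palmitic acid and 123 ± 5.14 TPM with vehicle, against 105 ± 10.1 and 109 ± 6.89 TPM in FLOX cells (SD, n = 4 each). Its difference between genotypes was 0.18 ± 0.062, adjusted p = 0.0856 with palmitic acid and 0.18 ± 0.062, adjusted p = 0.0736 with vehicle. Mcoln1, a calcium channel of the lysosome, had the largest standard error of the 35 genes, and its difference between genotypes with palmitic acid was 0.40 ± 0.19, adjusted p = 0.216 (95% interval 0.0067 to 0.80).

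**Figure D3:**
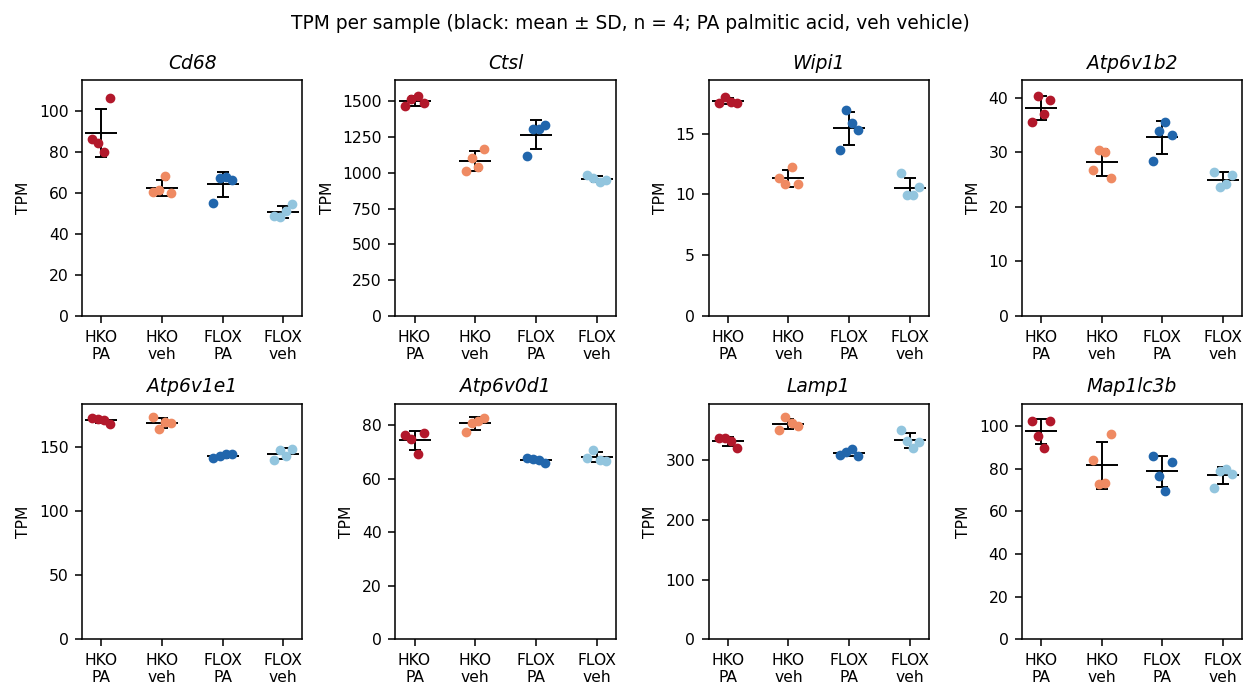
TPM of 8 of the genes in each sample, with the mean and SD of the 4 samples of each group in black. Cd68, Ctsl, Wipi1 and Atp6v1b2 are higher with palmitic acid in each genotype, while Atp6v1e1 and Atp6v0d1 are higher in HKO than in FLOX cells under both treatments.

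The cathepsins are lysosomal proteases. Ctsl, Ctsb and Ctsd rose with palmitic acid in both genotypes, Ctsh fell in HKO cells, and Ctsl and Ctsz were higher in HKO cells under both treatments. Ctsl (ENSMUSG00000021477, chr13:64359337-64370890, minus strand) encodes cathepsin L, a cysteine protease, and was the most abundant of the 35 genes. Ctsl had 1464, 1516, 1537 and 1487 TPM in HKO cells with palmitic acid and 1012, 1103, 1038 and 1167 TPM in HKO cells with vehicle. FLOX cells had 1114, 1305, 1305 and 1336 TPM with palmitic acid and 984, 961, 934 and 950.1 TPM with vehicle. The groups did not overlap in any of the 4 comparisons. Ctsl rose with palmitic acid by 0.48 ± 0.053, adjusted p = 3.03e-06 in HKO cells and by 0.40 ± 0.053, adjusted p = 2.76e-05 in FLOX cells, and was higher in HKO than in FLOX cells by 0.25 ± 0.053, adjusted p = 0.00594 with palmitic acid and by 0.17 ± 0.053, adjusted p = 0.0453 with vehicle. The call with vehicle was lost in 13 of the 16 fits without 1 sample (adjusted p up to 0.135), being kept without HKO vehicle replicate 1 or FLOX palmitic acid replicate 1 or 4, and it was also lost without the filter, without the trend and after quantile normalization. The other 3 calls of Ctsl were kept under all 25 alternatives. In the annotation 395 bases of Ctsl are shared with the pseudogene Gm49230 on the same strand, and 1971 bases with Gm47123 on the opposite one.

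Ctsb (ENSMUSG00000021939, chr14:63122462-63145923, plus strand) encodes cathepsin B, another cysteine protease. Ctsb had 350.2, 350.1, 365 and 369.6 TPM in HKO cells with palmitic acid and 320.0, 327, 344 and 329.8 TPM in HKO cells with vehicle. FLOX cells had 362, 372, 366 and 356 TPM with palmitic acid and 325, 321, 314 and 313 TPM with vehicle. Samples with palmitic acid lay above vehicle samples in both genotypes, by 0.12 ± 0.030, adjusted p = 0.00422 in HKO cells and 0.19 ± 0.030, adjusted p = 0.000117 in FLOX cells, with no difference past the threshold between genotypes. On the median-ratio scale the response of Ctsb was -0.0037 in HKO cells and 0.09 in FLOX cells, neither past the threshold. Ctsd, the aspartic protease cathepsin D, averaged 421 ± 7.45 TPM with palmitic acid and 379 ± 15.2 TPM with vehicle in HKO cells, and 404 ± 4.58 and 360.4 ± 11.6 TPM in FLOX cells (SD, n = 4 each). Its rises were 0.15 ± 0.032, adjusted p = 0.0012 in HKO cells and 0.16 ± 0.032, adjusted p = 0.000901 in FLOX cells, and both were lost on the median-ratio scale (0.029 and 0.061). In the annotation 6757 bases of Ctsd are shared with Gm49369 on the same strand, and 774 bases of Ctsb with Fdft1 on the opposite one.

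Ctsh (ENSMUSG00000032359, chr9:90054152-90076089, plus strand), an aminopeptidase, was the cathepsin that fell. Ctsh had 135, 121, 126 and 132 TPM in HKO cells with palmitic acid and 136, 147, 145 and 152 TPM in HKO cells with vehicle. FLOX cells had 131, 138, 129 and 142 TPM with palmitic acid and 138, 135, 150.2 and 140.2 TPM with vehicle. In HKO cells the 4 samples with palmitic acid lay below the 4 with vehicle (-0.17 ± 0.047, adjusted p = 0.00677), and in FLOX cells the groups overlapped (-0.060 ± 0.047, adjusted p = 0.341). The difference between the responses was -0.12 ± 0.066 (95% interval -0.26 to 0.025) and not past the threshold. Ctsz, a carboxypeptidase also found in macrophages, averaged 559.8 ± 9.25 TPM in HKO cells and 521 ± 15.0 TPM in FLOX cells with palmitic acid, and 552 ± 10.5 TPM in HKO cells and 498 ± 7.17 TPM in FLOX cells with vehicle. HKO cells were higher by 0.10 ± 0.026, adjusted p = 0.0212 with palmitic acid and by 0.15 ± 0.026, adjusted p = 0.00161 with vehicle. The call with palmitic acid was lost without HKO palmitic acid replicate 1 or 2 or FLOX palmitic acid replicate 2 or 3 (adjusted p up to 0.0683), under median-ratio scaling, without the trend and with only the groups compared. Ctsa, the carboxypeptidase that protects neuraminidase and galactosidase, was past the threshold in none of the comparisons, with differences between genotypes of 0.091 ± 0.058 with palmitic acid and 0.088 ± 0.058 with vehicle.

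Of the 7 other hydrolases and cofactors, Psap alone rose with palmitic acid, and 4 were higher in HKO cells under at least 1 treatment. Psap (ENSMUSG00000004207, chr10:60277627-60302597, plus strand) encodes prosaposin, the precursor of the saposins that present sphingolipids to their hydrolases. Psap had 197, 198, 185 and 184 TPM in HKO cells with palmitic acid and 163, 179, 177 and 173 TPM in HKO cells with vehicle. FLOX cells had 173, 193, 189 and 189 TPM with palmitic acid and 168, 156, 148 and 154 TPM with vehicle. Samples with palmitic acid lay above vehicle samples in both genotypes, by 0.14 ± 0.047, adjusted p = 0.0236 in HKO cells and 0.25 ± 0.047, adjusted p = 0.000751 in FLOX cells. In HKO cells the call was lost without HKO palmitic acid replicate 1 or 2 or HKO vehicle replicate 1 (adjusted p up to 0.0814), and under median-ratio scaling and quantile normalization, where the log2 fold change was 0.019 and 0.089. In FLOX cells it was 0.15 under median-ratio scaling, still called.

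Gla (ENSMUSG00000031266, chrX:134588149-134601125, minus strand) encodes alpha-galactosidase A, which removes galactose from the glycolipid Gb3. Gla had 4.44, 4.95, 5.21 and 4.99 TPM in HKO cells with palmitic acid and 4.75, 4.04, 4.54 and 5.06 TPM in HKO cells with vehicle. FLOX cells had 3.03, 3.93, 2.80 and 3.05 TPM with palmitic acid and 3.24, 3.52, 5.53 and 3.42 TPM with vehicle. With palmitic acid every HKO sample lay above every FLOX sample (0.49 ± 0.12, adjusted p = 0.019), the largest difference between genotypes among the 35 genes. With vehicle the groups overlapped (0.20 ± 0.12, adjusted p = 0.356), with FLOX vehicle replicate 3 at 5.53 TPM and the other 3 samples between 3.24 and 3.52 TPM. The call was lost without HKO palmitic acid replicate 3 or FLOX palmitic acid replicate 3 or 4 (adjusted p up to 0.0585).

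Hexa (ENSMUSG00000025232, chr9:59539540-59565109, plus strand) encodes the alpha subunit of beta-hexosaminidase A, which degrades the ganglioside GM2. Hexa had 38.5, 39.4, 31.9 and 35.3 TPM in HKO cells with palmitic acid and 35.3, 35.4, 37.1 and 35.3 TPM in HKO cells with vehicle. FLOX cells had 30.1, 33.0, 33.9 and 31.7 TPM with palmitic acid and 30.7, 30.8, 27.2 and 31.8 TPM with vehicle. With vehicle every HKO sample lay above every FLOX sample (0.24 ± 0.064, adjusted p = 0.0231), and with palmitic acid the groups overlapped (0.16 ± 0.064, adjusted p = 0.14). The call with vehicle was lost without HKO vehicle replicate 3 or FLOX vehicle replicate 3 (adjusted p up to 0.0742). Grn, the precursor of the granulins, averaged 159 ± 10.9 TPM in HKO cells and 141 ± 2.17 TPM in FLOX cells with palmitic acid, and 165 ± 7.20 TPM in HKO cells and 145 ± 3.90 TPM in FLOX cells with vehicle (SD, n = 4 each). HKO cells were higher by 0.17 ± 0.045, adjusted p = 0.0267 with palmitic acid and by 0.19 ± 0.045, adjusted p = 0.0125 with vehicle. The call with palmitic acid was lost without HKO palmitic acid replicate 1 or 2 or FLOX palmitic acid replicate 1, 3 or 4 (up to 0.0904), without both FLOX libraries numbered 1, without the trend and with only the groups compared. Neu1, the lysosomal neuraminidase, was higher in HKO cells with palmitic acid (0.16 ± 0.045, adjusted p = 0.0334) and missed the threshold with vehicle (0.14 ± 0.045, adjusted p = 0.0585). The call with palmitic acid was lost in Neu1 without HKO palmitic acid replicate 1, 2 or 4 or FLOX palmitic acid replicate 2 or 4 (up to 0.106), under median-ratio scaling, without the trend and with only the groups compared. Gaa, the enzyme that cleaves glycogen in the lysosome, differed between genotypes by 0.048 ± 0.065 with palmitic acid and 0.075 ± 0.065 with vehicle, neither past the threshold. Gusb, beta-glucuronidase, had -0.070 ± 0.061 with palmitic acid and 0.064 ± 0.061 with vehicle.

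Of the 9 V-ATPase subunits, Atp6v0d1 and Atp6v1e1 were called higher in HKO cells under each treatment. All 9 fitted differences between HKO and FLOX cells were above 0 under each treatment, with medians of 0.092 with palmitic acid and 0.16 with vehicle. The medians of all genes were -0.0077 and -0.023. All 9 were also above 0 under median-ratio scaling and quantile normalization. With vehicle the differences of Atp6v1d (0.0024 ± 0.12) and Atp6v0e (0.012 ± 0.037) were close to 0. Of 9 further V-ATPase genes tested, 7 differences were above 0 and 2 below under each treatment. Summed over the 9 subunits the level ran from 756 to 779 TPM in HKO cells with palmitic acid and from 684 to 721 TPM in FLOX cells with palmitic acid. With vehicle it ran from 757 to 771 TPM in HKO cells and from 701 to 709 TPM in FLOX cells. The lowest HKO sum thus lay above the highest FLOX sum under each treatment, and the sums with palmitic acid and with vehicle overlapped within each genotype. With palmitic acid the V-ATPase sums averaged 766 TPM in HKO and 702 TPM in FLOX cells, of which Atp6v1e1 was 171 and 143 TPM. With vehicle they averaged 762 and 704 TPM, of which Atp6v1e1 was 169 and 145 TPM. The sums of the membrane proteins and of the cathepsins also separated the genotypes under each treatment. The lowest HKO sum of the membrane proteins was 614 TPM with palmitic acid and 605 TPM with vehicle, against 586 and 596 TPM for the highest FLOX sum, and that of the cathepsins was 3087 and 2509 TPM, against 2897 and 2479 TPM. The separation was not particular to these roles, as the sums of the 10 hepatocyte markers showed it too. Their lowest HKO sum was 45070 TPM with palmitic acid and 58927 TPM with vehicle, against 44794 and 56127 TPM for the highest FLOX sum. Ctsl weighed heavily in the cathepsin sums. With palmitic acid they averaged 3115 TPM in HKO and 2826 TPM in FLOX cells, of which Ctsl was 1501 and 1265 TPM. Of the 6 cathepsins 4 were then above 0 in the fitted difference and 2 (Ctsb and Ctsh) below.

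**Figure D4:**
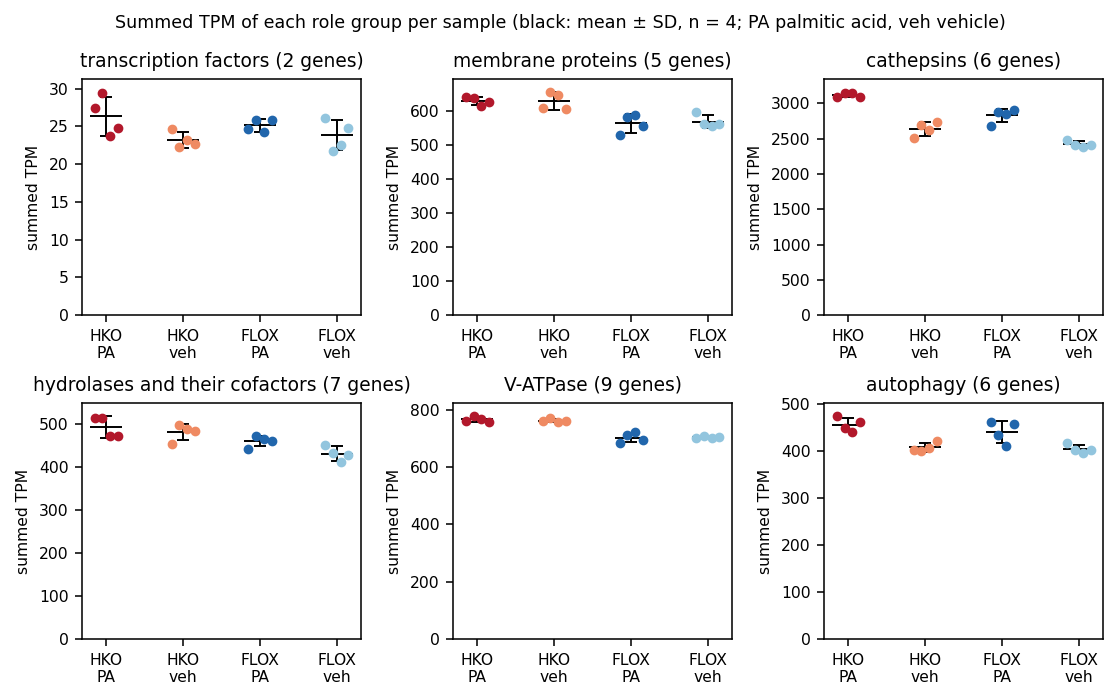
Summed TPM of the genes of each role in each sample, with the mean and SD of 4 samples per group in black. The V-ATPase sums of HKO cells (756 to 779 TPM) lie above those of FLOX cells (684 to 721 TPM), the membrane protein and cathepsin sums separate the genotypes within each treatment too, and the cathepsin sums also separate palmitic acid from vehicle within each genotype.

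Atp6v1e1 (ENSMUSG00000019210, chr6:120794305-120822793, minus strand) encodes the E subunit, part of the stalks that hold the V1 head. Atp6v1e1 had 173, 172, 172 and 168 TPM in HKO cells with palmitic acid and 174, 164, 170.0 and 169 TPM in HKO cells with vehicle. FLOX cells had 142, 143, 145 and 145 TPM with palmitic acid and 140.2, 148, 144 and 149 TPM with vehicle. All 8 HKO samples lay above all 8 FLOX samples, and palmitic acid made no called difference. HKO cells exceeded FLOX cells by 0.25 ± 0.028, adjusted p = 1.72e-05 with palmitic acid and by 0.22 ± 0.028, adjusted p = 8.6e-05 with vehicle. Both calls were kept under all 25 alternatives.

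Atp6v0d1 (ENSMUSG00000013160, chr8:105524465-105566047, minus strand) encodes the d subunit of V0, which joins the membrane ring to the central stalk. Atp6v0d1 had 76.5, 74.7, 69.2 and 77.1 TPM in HKO cells with palmitic acid and 77.3, 81.0, 81.6 and 82.8 TPM in HKO cells with vehicle. FLOX cells had 67.8, 67.4, 67.0 and 66.0 TPM with palmitic acid and 67.6, 70.8, 67.2 and 66.7 TPM with vehicle. HKO samples lay above FLOX samples under each treatment, by 0.15 ± 0.038, adjusted p = 0.023 with palmitic acid and 0.24 ± 0.038, adjusted p = 0.000555 with vehicle. In HKO cells the level fell with palmitic acid (-0.12 ± 0.038, adjusted p = 0.0227), and in FLOX cells it was -0.021 ± 0.038, adjusted p = 0.711. The fall in HKO cells was lost with only the groups compared and without HKO palmitic acid replicate 3 or HKO vehicle replicate 3 or 4 (adjusted p up to 0.0818), and the difference with palmitic acid without HKO palmitic acid replicate 1, 2 or 4 or FLOX palmitic acid replicate 3 or 4 (up to 0.0733), under median-ratio scaling, without the trend and with only the groups compared. The difference with vehicle was kept under all 25 alternatives.

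Atp6v1b2 (ENSMUSG00000006273, chr8:69088646-69113711, plus strand) encodes the B subunit of the catalytic head found in most tissues, and it was the subunit that rose with palmitic acid. Atp6v1b2 had 35.6, 40.3, 37.0 and 39.6 TPM in HKO cells with palmitic acid and 26.7, 30.4, 30.1 and 25.4 TPM in HKO cells with vehicle. FLOX cells had 28.4, 33.9, 35.5 and 33.3 TPM with palmitic acid and 26.4, 23.6, 24.2 and 25.8 TPM with vehicle. Every sample with palmitic acid lay above every vehicle sample of its genotype, by 0.43 ± 0.074, adjusted p = 0.000241 in HKO cells and 0.37 ± 0.074, adjusted p = 0.00106 in FLOX cells. Both rises were kept under all 25 alternatives. HKO samples with palmitic acid also lay above FLOX samples with palmitic acid, without passing the threshold (0.21 ± 0.074, adjusted p = 0.0831). Its partner in the head, the A subunit Atp6v1a, was -0.13 ± 0.092 with palmitic acid in HKO cells and -0.024 ± 0.092 in FLOX cells. The remaining subunits Atp6v0a1, Atp6v0e, Atp6v1c1, Atp6v1d and Atp6v1h had responses to palmitic acid between -0.083 and 0.063 in HKO cells and between -0.091 and 0.10 in FLOX cells, none past the threshold.

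Of the autophagy genes, Wipi1 and Map1lc3a rose with palmitic acid in both genotypes. Wipi1 (ENSMUSG00000041895, chr11:109573331-109611967, minus strand) encodes a protein that binds phosphatidylinositol 3-phosphate on forming autophagosomes. Wipi1 had 17.5, 18.0, 17.6 and 17.6 TPM in HKO cells with palmitic acid and 11.3, 10.8, 12.2 and 10.8 TPM in HKO cells with vehicle. FLOX cells had 13.7, 16.9, 15.8 and 15.3 TPM with palmitic acid and 11.7, 9.96, 9.92 and 10.6 TPM with vehicle. Samples with palmitic acid lay above vehicle samples in both genotypes. The rise was 0.60 ± 0.068, adjusted p = 3.69e-06 in HKO cells and 0.51 ± 0.068, adjusted p = 2.93e-05 in FLOX cells, the largest response of the 35 genes in each genotype, and it was kept under all 25 alternatives. With palmitic acid the 4 HKO samples lay above the 4 FLOX samples, a difference that missed the threshold (0.19 ± 0.068, adjusted p = 0.103).

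Map1lc3a and Map1lc3b encode LC3A and LC3B, the proteins that are attached to lipid on the autophagosome membrane. Map1lc3a had 192, 175, 182 and 188 TPM in HKO cells with palmitic acid and 148, 149, 154 and 148 TPM in HKO cells with vehicle. FLOX cells had 218, 190.2, 187 and 202 TPM with palmitic acid and 162, 174, 157 and 157 TPM with vehicle. Map1lc3a (ENSMUSG00000027602, chr2:155276297-155278073, plus strand) rose with palmitic acid by 0.30 ± 0.048, adjusted p = 0.000139 in HKO cells and 0.29 ± 0.048, adjusted p = 0.000213 in FLOX cells, with no overlap of the groups. Under median-ratio scaling the rise was 0.17 in HKO cells, no longer called (adjusted p = 0.0624), and 0.19 in FLOX cells, still called (0.0481), while the adjusted p over all 25 alternatives ran from 3.02e-05 to 0.0624 in HKO cells. Between genotypes the fitted difference was below 0, at -0.11 ± 0.048, adjusted p = 0.186 with palmitic acid and -0.11 ± 0.048, adjusted p = 0.158 with vehicle, and it did not pass the threshold. With vehicle every HKO sample lay below every FLOX sample, and with palmitic acid the groups overlapped.

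Map1lc3b had 102, 95.5, 89.9 and 102 TPM in HKO cells with palmitic acid and 84.3, 72.6, 73.2 and 96.2 TPM in HKO cells with vehicle. FLOX cells had 85.9, 76.5, 69.4 and 83.2 TPM with palmitic acid and 71.2, 79.0, 79.8 and 77.3 TPM with vehicle. Map1lc3b (ENSMUSG00000031812, chr8:121590361-121598760, plus strand) rose with palmitic acid in HKO cells (0.26 ± 0.085, adjusted p = 0.0215), where HKO vehicle replicate 4 lay within the range of the treated samples. With palmitic acid HKO cells exceeded FLOX cells by 0.31 ± 0.085, adjusted p = 0.031 with no overlap, and with vehicle by 0.078 ± 0.085, adjusted p = 0.648 with overlap. The rise in HKO cells was lost without HKO palmitic acid replicate 1 or 4 or HKO vehicle replicate 2 or 3 (adjusted p up to 0.0721), and the difference with palmitic acid without HKO palmitic acid replicate 1, 2 or 4 or FLOX palmitic acid replicate 2 or 3 (up to 0.0981). Both were lost under median-ratio scaling (the rise was then 0.14) and without the filter, and the rise also after quantile normalization. In the annotation 8400 bases of Map1lc3b are shared with Gm20388 on the same strand. Gabarapl1, a relative of LC3, was higher in HKO cells with palmitic acid (0.16 ± 0.047, adjusted p = 0.0408) and with vehicle (0.17 ± 0.047, adjusted p = 0.0282). These calls were lost in 9 and in 4 of the 16 fits without 1 sample, with an adjusted p of 0.112 and 0.0928 at most, and both without the trend. The call with palmitic acid was also lost under median-ratio scaling, without the filter, with only the groups compared and without both FLOX libraries numbered 1. Ulk1, the kinase that starts autophagy, and Becn1, a subunit of the lipid kinase complex that follows it, were not past the threshold in any comparison, and the response of Ulk1 in HKO cells was -0.22 ± 0.10, adjusted p = 0.0727.

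Relative to the median of all genes, which was 0.11 on the log2 scale in HKO cells with palmitic acid, the response of Wipi1 was 0.49, that of Cd68 0.39, that of Ctsl 0.37 and that of Atp6v1b2 0.32. On the same scale Map1lc3a stood at 0.18, Map1lc3b at 0.15 and Tfe3 at 0.15. Scarb2, Ctsd, Psap and Ctsb were closer to the median, at 0.082, 0.041, 0.030 and 0.0082. The genes that fell were further below it, with Ctsh at -0.29, Lamp1 at -0.23 and Atp6v0d1 at -0.23. Some genes that were not called stood as far below it, among them Ulk1 at -0.33, Tfeb at -0.26 and Atp6v1a at -0.24.

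The response to palmitic acid was not shown to differ between HKO and FLOX cells for any of the 35 genes. The interaction, the response of HKO cells minus that of FLOX cells, was past the threshold of limma for 0 of 35 genes, and 0 had an unadjusted p under 0.05. Of all genes tested, 23 (0.194%) were past it. The largest interaction estimates were 0.29 ± 0.18 for Gla (95% interval -0.085 to 0.67) and 0.23 ± 0.12 for Map1lc3b (-0.026 to 0.49), and for Cd68 it was 0.17 ± 0.12 (-0.081 to 0.43).

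Other genes of the same pathways were counted on lists of 137 genes, of which 126 were tested. With palmitic acid 29 (23.0%) rose and 11 (8.73%) fell in HKO cells, against 29.4% and 13.1% of all genes tested, and 24 (19.0%) rose and 10 (7.94%) fell in FLOX cells, against 23.0% and 11.5%. HKO cells had 13 (10.3%) higher and 0 lower than FLOX cells with palmitic acid, and 14 (11.1%) higher and 0 lower with vehicle, against 4.24% and 4.11% of all genes that were higher. The interaction passed in 0 of the 126. Of the 35 further autophagy genes, 16 (45.7%) rose and 2 (5.71%) fell in HKO cells with palmitic acid and 12 (34.3%) rose and 3 (8.57%) fell in FLOX cells, against the 29.4% and 23.0% of all genes that rose. Of these 35, 6 (17.1%) were higher in HKO cells with palmitic acid and 4 (11.4%) with vehicle. Wipi2, a relative of Wipi1, rose by 0.71 ± 0.059, adjusted p = 1.46e-07 in HKO cells and 0.53 ± 0.059, adjusted p = 5.29e-06 in FLOX cells, and Epg5, which helps autophagosomes fuse with lysosomes, by 0.80 ± 0.19, adjusted p = 0.0042 in FLOX cells, with 0.44 ± 0.19, adjusted p = 0.0708 in HKO cells. Of 9 further V-ATPase genes tested, 2 rose and 1 fell with palmitic acid in HKO cells and 0 did either in FLOX cells, while 1 was higher in HKO cells with palmitic acid and 3 with vehicle. Atp6v0b, a subunit of the proton-conducting ring, was higher by 0.21 ± 0.036, adjusted p = 0.000942 with palmitic acid and 0.18 ± 0.036, adjusted p = 0.00364 with vehicle, and the accessory protein gene Atp6ap2 by 0.26 ± 0.062, adjusted p = 0.0131 with vehicle.

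Of 20 other membrane protein genes, 4 (20%) rose in each genotype, and 2 (10%) fell in HKO and 3 (15%) in FLOX cells with palmitic acid. Of all genes tested, 29.4% rose and 13.1% fell in HKO cells, and 23.0% rose and 11.5% fell in FLOX cells. Of 29 other hydrolase genes 3 (10.3%) rose in each, while 3 (10.3%) fell in HKO and 2 (6.90%) in FLOX cells. Of 9 other proteases tested 3 (33.3%) rose and 1 (11.1%) fell in each. Between genotypes 2 (22.2%) of them were higher in HKO cells with palmitic acid and 3 (33.3%) with vehicle. Of all genes tested, 4.24% were higher in HKO cells with palmitic acid and 4.11% with vehicle. Of 18 genes of TFEB control tested, 1 (5.56%) rose and 1 (5.56%) fell in HKO cells and 2 (11.1%) rose and 0 fell in FLOX cells. Of 6 sorting genes 1 (16.7%) fell in each. The calls between genotypes not yet given were all higher in HKO cells. They were 1 membrane protein (5%) with vehicle, and 3 hydrolases (10.3%) with palmitic acid and 1 (3.45%) with vehicle. Of the genes of TFEB control 1 (5.56%) was called with palmitic acid and 2 (11.1%) with vehicle.

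Some of these genes had larger responses than any of the 35. The lysosomal membrane gene Sidt2, whose product takes up RNA, averaged 169 ± 10.2 TPM with palmitic acid and 88.8 ± 4.90 TPM with vehicle in HKO cells (0.92 ± 0.081, adjusted p = 2.82e-07), and 187 ± 23.4 and 94.9 ± 7.22 TPM in FLOX cells (0.97 ± 0.081, adjusted p = 2.38e-07). Npc1, which exports cholesterol from the lysosome, rose by 0.67 ± 0.068, adjusted p = 1.32e-06 in HKO cells and 0.56 ± 0.068, adjusted p = 1.14e-05 in FLOX cells. Hgsnat, an acetyltransferase of heparan sulfate breakdown, rose by 0.66 ± 0.063, adjusted p = 6.38e-07 in HKO cells and 0.60 ± 0.063, adjusted p = 2.23e-06 in FLOX cells. Ctsw, a protease gene best known from lymphocytes, averaged 3.17 ± 0.692 TPM with palmitic acid and 1.79 ± 0.212 TPM with vehicle in HKO cells (0.57 ± 0.16, adjusted p = 0.00819), and 4.83 ± 1.37 and 1.74 ± 0.366 TPM in FLOX cells (1.07 ± 0.16, adjusted p = 7.19e-05). Gm2a, the activator that presents ganglioside GM2 to beta-hexosaminidase, fell in both, with log2 fold changes of -0.86 ± 0.061, adjusted p = 2.56e-08 in HKO cells and -0.81 ± 0.061, adjusted p = 7.01e-08 in FLOX cells. Rraga, a small GTPase that links amino acids to mTORC1 on the lysosome, rose by 0.41 ± 0.043, adjusted p = 1.83e-06 in HKO cells and 0.29 ± 0.043, adjusted p = 9.25e-05 in FLOX cells. Its relative Rragd was higher in HKO than in FLOX cells with palmitic acid (0.41 ± 0.12, adjusted p = 0.0495) and with vehicle (0.40 ± 0.12, adjusted p = 0.0473). Sort1, a sorting receptor, fell with palmitic acid, with -0.26 ± 0.093, adjusted p = 0.0331 in HKO cells and -0.26 ± 0.093, adjusted p = 0.0448 in FLOX cells. Ctsc, cathepsin C, was higher in HKO than in FLOX cells by 0.52 ± 0.047, adjusted p = 2.21e-06 with palmitic acid (means 48.2 ± 2.38 and 33.4 ± 1.80 TPM) and by 0.49 ± 0.047, adjusted p = 4.19e-06 with vehicle (means 51.8 ± 1.44 and 36.6 ± 1.39 TPM).

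Markers of other liver cells did move with genotype in part. The summed level of 5 cholangiocyte markers ran from 338 to 386 TPM in HKO cells and from 197 to 242 TPM in FLOX cells with palmitic acid, and from 298 to 324 TPM in HKO cells and from 180.3 to 191 TPM in FLOX cells with vehicle. Most of it was Spp1, which averaged 327 ± 21.3 TPM in HKO cells and 171 ± 19.8 TPM in FLOX cells with palmitic acid, and 274 ± 12.3 TPM in HKO cells and 149 ± 5.99 TPM in FLOX cells with vehicle. Krt19 was higher in HKO cells with vehicle (0.43 ± 0.12, adjusted p = 0.0319) and Krt7 lower (-0.61 ± 0.10, adjusted p = 0.00112), neither was past the threshold with palmitic acid, and Sox9 was not past it under either treatment. Epcam stayed below 1 TPM in every sample, and none of the 5 was at 0 in every sample of a group. With palmitic acid Krt19 and Krt7 fell and Sox9 and Spp1 rose in both genotypes. Of the 10 hepatocyte markers, 5 were higher and 2 lower in HKO than in FLOX cells with palmitic acid, and 4 higher and 2 lower with vehicle. Endothelial markers summed to between 2.68 and 5.46 TPM over the 16 samples, with Stab2 higher in HKO cells with vehicle (0.55 ± 0.12, adjusted p = 0.00853), and stellate, lymphocyte, neutrophil and erythroid markers summed to 1.78 TPM at most per list. The part of these cells in the results was not tested. Both FLOX libraries numbered 1 held 5 of the 11 single values of the 35 genes that stood apart from their groups. Leaving out these libraries gave 9 genes higher and 0 lower in HKO cells with palmitic acid, and 13 higher and 0 lower with vehicle. Of all genes 4.1% were then higher and 6.4% lower with palmitic acid, and 6% higher and 7.8% lower with vehicle. Without these libraries 12 of the 35 genes rose and 1 (Atp6v0e) fell with palmitic acid in FLOX cells. Of all genes 33.3% then rose in FLOX cells, in place of 23.0%, and 11.4% fell, so the background of rises moved up with the count. The counts in HKO cells stayed at 11 and 3, against 33.4% of all genes that rose and 14.1% that fell.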

How the data were processed

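RNA from primary hepatocytes had been made into libraries with a stranded total RNA kit, per the labels' protocols. The deposited values are TPM per Ensembl gene for 16 samples, computed by the authors with RSEM 1.3.3, per the submitters' processing notes. The genome build that those notes list is human, whereas the gene IDs are of mouse, so the build used is unknown. The aligner, the annotation and the use of strand in counting were not given in the sources used here. IDs were paired with symbols through a gene name table (52083 of 55416, 94.0%).

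Genes with at least 1 TPM in at least 4 of 16 samples were tested. Values were taken as log2(TPM + 1) and fitted with limma 3.58.1 in R 4.3.3, with 1 mean per group, all 16 samples in 1 fit and a mean-variance trend. The 4 pairwise comparisons and the interaction were two-sided, with Benjamini-Hochberg adjustment over all 11858 genes and a threshold of 0.05. A log2(TPM + 1) fold change understates the change of genes near 1 TPM. The procedure was tested on simulated data. No 2 sample columns held identical values. The fit was repeated with a pseudocount of 0.1, without the filter, with a filter at 5 TPM, with median-ratio scaling, with quantile normalization, without the trend, on the groups compared alone, with a replicate block, without each sample, and without both FLOX libraries numbered 1. Positions are those of GENCODE M21 (GRCm38), and promoters are those of a RefSeq table (GRCm38.p6).

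The 35 genes and all lists were chosen with earlier results of these data known. Sample values are given for Tfeb and Tfe3 and, in each role, for up to 3 genes with the largest fold change past the threshold, and up to 2 genes per list of other pathway genes are named by the same measure.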

Additional observations from a re-analysis of the deposited data

Results flagged for a closer look

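In each group of 4 samples, a sample was singled out where its gap to the nearest other sample, divided by the range of the group, was above Dixon's 95% critical value for 4 samples. This held for 11 of 144 tests on the 35 genes and Smpd3, and chance gives about 1 in 20. Of the 11, 5 lay in the FLOX libraries numbered 1.

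FLOX palmitic acid replicate 1 had 89.99 TPM of Lamp2, with the other 3 samples between 108.25 and 111.17, 55.12 TPM of Cd68 (others 66.12 to 67.83) and 1114.3 TPM of Ctsl (others 1304.53 to 1335.55). FLOX vehicle replicate 1 had 119.12 TPM of Lamp2 (others 104.27 to 106.29) and 35.54 TPM of Gusb (others 29.12 to 29.63). HKO vehicle replicate 3 had 68.03 TPM of Cd68 (others 60.07 to 61.25) and 37.07 TPM of Hexa (others 35.33 to 35.35). FLOX vehicle replicate 3 had 26.77 TPM of Gaa (others 29.41 to 29.84) and 5.53 TPM of Gla (others 3.24 to 3.52). FLOX palmitic acid replicate 4 had 72.44 TPM of Gabarapl1 (others 65.75 to 66.75). HKO palmitic acid replicate 2 had 18.04 TPM of Wipi1 (others 17.49 to 17.58).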

How the results depend on the processing

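Of 43 calls of the 35 genes over the 4 pairwise comparisons, 17 were kept under all 25 alternatives, 26 were lost under at least 1, and 26 were kept without any 1 sample. The response of Ctsb in HKO cells reversed to -0.0037 under median-ratio scaling.

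Under median-ratio scaling 5 genes fell with palmitic acid in FLOX cells, in place of 1, and in HKO cells 4 rose in place of 11 and 12 fell in place of 3. The interaction then passed in 9 of all genes in place of 23. Quantile normalization gave 7 that rose and 9 that fell in HKO cells, and 16 higher in HKO than in FLOX cells with palmitic acid in place of 10. Without the mean-variance trend these were 5, the interaction passed in 5 of all genes, and 0 of the 35 fell in FLOX cells (Lamp1 in the fit as reported). With only the groups compared, 0 fell in FLOX cells, 5 were higher in HKO cells with palmitic acid, and 669 of all genes were called there in place of 1155. The cause of these shifts was not tested.

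With the replicate block, 0 genes fell with palmitic acid in FLOX cells. Higher in HKO cells were 3 with vehicle, against 1.91% of all genes, and 4 with palmitic acid, against 2.13%. Of all genes, 2010 were then called with palmitic acid in FLOX cells in place of 4084, 549 between genotypes with vehicle in place of 1384, 535 with palmitic acid, and 3 in the interaction. Deviations of same-numbered samples of the same genotype correlated between -0.15 and 0.086 across the treatments. Those of same-numbered HKO and FLOX samples correlated between -0.11 and 0.11. The numbers were therefore not taken to pair the samples. Between genotypes the block joined HKO and FLOX samples by number, a pairing that the labels do not state.

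Without 1 sample each, the genes that fell with palmitic acid in FLOX cells numbered 0 to 2, those higher in HKO cells 4 to 11 with vehicle and 4 to 10 with palmitic acid, and the interaction over all genes passed in 8 to 24 (13 at most in 12 of the 16 fits, and 19 or more only without HKO palmitic acid replicate 4, HKO vehicle replicate 4 or FLOX palmitic acid replicate 1 or 2). In FLOX cells 0 fell without palmitic acid replicate 2 or 4 or vehicle replicate 2 or 4, and 2 without palmitic acid replicate 1. The samples behind the low counts between genotypes are named beside those counts in the text above. Depth is unknown and 4 samples a group limit the precision.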
